A study of Sus scrofa with 6 samples.

Results

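The intergenic CpGs between BET1 and COL1A2 on pig chromosome 9 are the subject here, described in whole embryos that carried both parental genomes or a maternal genome only. They were chosen by annotation and not by level: a CpG was taken where the authors' table called it intergenic and named BET1 and COL1A2 as its nearest genes on either side. The interval held 2452 such CpGs, and 2314 of them had at least 10 reads in every embryo, which is 18.7% of the 12359 CpGs that reached this depth in the whole deposited stretch of the chromosome. The other 138 were too shallow in at least 1 embryo and were left out.

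Whole-genome bisulfite sequencing had been done on 3 control embryos, labelled untreated, and 3 parthenotes, all Landrace x Yorkshire x Duroc (LYD) and all at embryonic day 21. Parthenotes grew from oocytes started by electric pulses without sperm and carried in surrogate gilts, so they have no paternal chromosomes. Bisulfite turns unmethylated cytosine into uracil, which is read as thymine, so the share of reads that still show cytosine is the methylation level. The libraries used the Accel-NGS Methyl-Seq kit. Each library is 1 whole embryo, so a level is an average over all of its cell types, and a change in the mix of cells cannot be told apart from a change within cells. The labels do not say which embryos shared a litter, so p-values measure only the spread between these 6 samples.

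BET1 encodes a SNARE protein of transport vesicles between the endoplasmic reticulum and the Golgi. COL1A2 encodes the alpha-2 chain of type I collagen, the main fibre protein of skin, tendon and bone, and is strongly used by fibroblasts and other mesenchymal cells. In mammals most CpGs outside promoters are highly methylated, while enhancers bound by transcription factors often appear as short stretches of low methylation whose level follows the cell types present. Distal enhancers of COL1A2 lying well upstream of its start are known in mouse and human. No sequence was compared with them here.

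The interval runs from 73793721 to 74173480 on chromosome 9 of Sscrofa11.1, 379760 bp. BET1 (73782157 to 73792653) is on the minus strand and COL1A2 (74174484 to 74210407) on the plus strand, so it separates the starts of the 2 genes. The nearest CpG taken lies 1068 bp from BET1 and 1005 bp from COL1A2, because the authors' annotation puts nearer ones in another class. RefSeq places a long noncoding RNA gene, LOC102163402, at 73792726 to 73982962. Its span begins 73 bp from the start of BET1 and covers 49.8% of the interval, although the authors' annotation calls that part intergenic. Inside it lay 1105 of the CpGs and outside it 1209. The interval is CpG-poor, at 6.46 CpGs per kb, with a median of 36 bp from a CpG to its nearest neighbour and a longest CpG-free run of 1643 bp.

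The embryos were sequenced to like depth here, with 67653 to 74420 reads in the interval and a median of 29 to 32 reads per CpG. Control 1 stood apart from the other 5 embryos: it was the lowest embryo at 1251 of the 2314 CpGs (54.1%), and the median deviation of its CpGs from the mean of the 6 was -8.41 percentage points. It also had the most cytosines at which at least 20% of the opposite-strand reads were A, a sign of a sequence variant rather than of bisulfite conversion, at 62 against 1 to 10 in the others. Results that rest on it are given with and without it. In all, 83 of the 2314 CpGs (3.59%) bore a variant sign, meaning such an A or a strand without any call, in at least 1 embryo.

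The interval was highly methylated in every embryo. The mean over its CpGs was 74.8% in control 1, 86.6% in control 2 and 83.0% in control 3, and 82.8%, 85.2% and 86.5% in parthenotes 1, 2 and 3. Control 1 was the low sample, and the parthenotes lay within the range of the controls. The controls averaged 81.5% ± 6.07 (SD, n = 3) and the parthenotes 84.8% ± 1.88 (SD, n = 3). The difference of 3.32 percentage points was smaller than the spread among controls (exact two-sided permutation test, p = 0.7, where 3 against 3 cannot go below 0.1), and without control 1 it was -0.036. With CpGs bearing a variant sign left out, the means were 75.8%, 87.3% and 83.5% in the controls and 82.8%, 85.4% and 86.6% in the parthenotes.

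Single CpGs were mostly near full methylation. The median CpG, averaged over the 6 embryos, was at 88.3%. At 929 CpGs (40.1%) the level was 90% or more, and at 774 it was from 80% to 90%. Another 512 CpGs (22.1%) lay between 50% and 80%, 57 between 30% and 50%, 24 between 10% and 30%, and 18 under 10%.

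Compared with the other intergenic CpGs of the deposited stretch, the interval was slightly less methylated. Those 2496 CpGs averaged 77.1%, 87.5% and 85.8% in controls 1 to 3 and 85.5%, 86.4% and 87.5% in parthenotes 1 to 3. The interval was lower in 6 of 6 embryos, with differences from -2.77 to -0.86 points and a mean of -1.83 (exact two-sided sign-flip permutation test over embryos, p = 0.0312, the smallest that 6 embryos allow). This and 3 further comparisons within embryos, given below by spacing, gene distance and noncoding RNA span, form a family of 4. Each had a Benjamini-Hochberg adjusted p of 0.0312, since all 4 were at the smallest p and the adjustment then changes nothing. The noncoding RNA comparison was added after the values were seen. All embryos were measured at the same CpGs, so these tests show only that a difference repeats over embryos. They do not weigh the spread among CpGs, and 2 arbitrary sets of CpGs could also differ alike in every embryo. CpGs at 90% or more made up 48.6% of the other intergenic CpGs, against the 40.1% here, while the share under 50% was 4.05% there and 4.28% here. Against the 6465 intronic CpGs the difference was -0.76 points, lower in 4 of 6 embryos (exact permutation p = 0.219).

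The level was uneven along the interval. In 10 kb bins the mean over embryos ranged from 69.9% to 90%, with a median of 84.7% over 39 bins. Control 1 was the lowest embryo in 39 of 39 bins. The bin of highest mean began at 73810000, inside LOC102163402 on the BET1 side. The 2 lowest began at 74080000 (69.9%) and 74010000 (70.4%), both outside the noncoding RNA gene on the COL1A2 side. In the bin at 74150000 the embryos were far apart, at 64.7%, 83.2% and 70.1% in the controls and 68.7%, 82.1% and 82.8% in the parthenotes. Control 3 and parthenote 1 lay near control 1 in that bin, and controls and parthenotes overlapped.

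**Figure D1:**
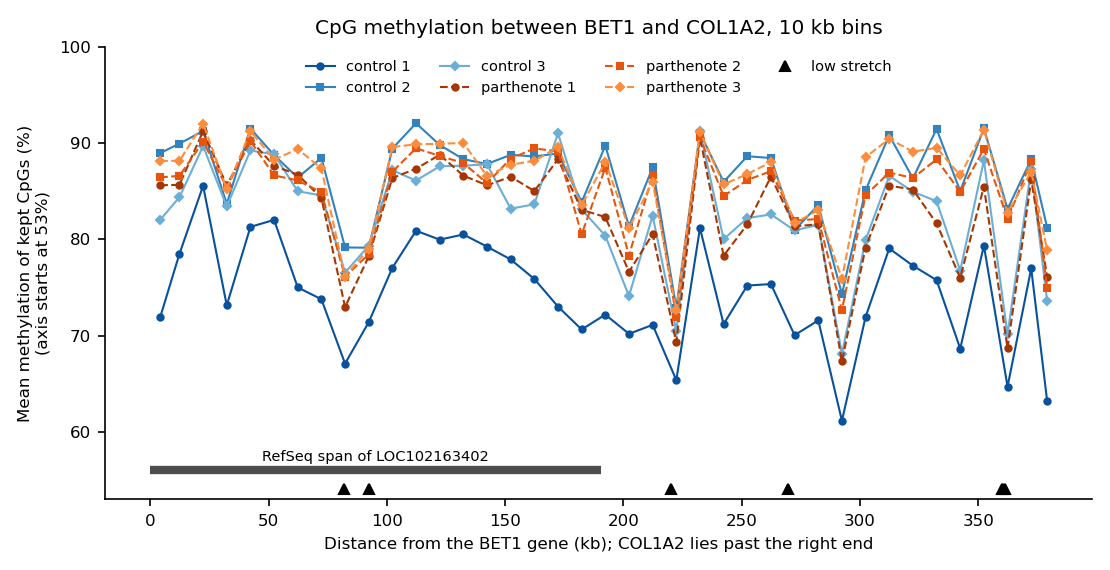
Mean methylation (%, axis from 53%) of the kept CpGs in each 10 kb bin against the bin centre's distance from BET1 in kb, 1 line per embryo (solid, controls; dashed, parthenotes), with the RefSeq span of LOC102163402 as a bar and the 7 low stretches as triangles. Control 1 is the lowest line in 39 of 39 bins. The remaining lines are far apart in single bins, such as that at 74150000 near the right end, and close together in the next bin (86.2% to 88.3%).

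The part of the interval covered by LOC102163402 was more methylated than the rest. Inside its span the embryos averaged 77.0%, 87.6% and 85.4% (controls) and 85.6%, 86.1% and 87.4% (parthenotes). Outside it they averaged 72.8%, 85.8% and 80.9% (controls) and 80.2%, 84.3% and 85.7% (parthenotes). Inside was higher in 6 of 6 embryos, by 1.68 to 5.47 points and by 3.27 on average (exact sign-flip permutation test, two-sided, p = 0.0312). The comparison was not planned and was added after the values were seen, so its p is descriptive. The noncoding RNA span is also the BET1 side of the interval, so its cover and the position along the chromosome cannot be told apart. Whether the RNA was made in these embryos was not measured.

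Near the genes the level was lower on the COL1A2 side. Within 2 kb of COL1A2 the 7 CpGs averaged 76.5% over the embryos, the 14 CpGs from 2 to 5 kb averaged 75%, and the 19 from 5 to 10 kb averaged 76.8%. From 10 to 20 kb the mean was 88.2% over 82 CpGs. At BET1 the 2 CpGs within 2 kb averaged 95.2%, the 8 from 2 to 5 kb 85.2% and the 36 from 5 to 10 kb 82.9%. The lower values close to a gene were thus those at COL1A2, and neither these classes nor the 2 genes were tested against each other. Both genes' ends together, the 31 CpGs within 5 kb of either, differed from the 1621 CpGs more than 50 kb from both by -3.24 points on average and were lower in 6 of 6 embryos (range -7.35 to -0.54 points, exact sign-flip permutation test, p = 0.0312). With at least 20 reads required, the difference was -1.81 and lower in 5 of 6 embryos (exact permutation p = 0.219), and within 10 kb of a gene it was -2.27 (exact permutation p = 0.0625). Without control 1 it was -2.39.

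CpGs with a close neighbour were more methylated than isolated ones. The mean over the embryos was 88.4% for the 557 CpGs with another CpG within 10 bp and 83.2% for the 306 at 11 to 20 bp. It was 81.5% at 21 to 50 bp, 80.1% at 51 to 100 bp, 81.9% at 101 to 200 bp, 81.3% at 201 to 500 bp and 80% for the 22 CpGs farther than that. The widest step was that from the closest class to the next, and the classes from 51 bp on had no steady order. The 863 CpGs within 20 bp of another stood at 80.6%, 89.2% and 86.2% in the controls and 85.5%, 88.4% and 89.4% in the parthenotes. The 208 CpGs more than 200 bp from any other stood at 71.0%, 85.0% and 81.5% in the controls and 82.2%, 82.9% and 84.6% in the parthenotes. Close CpGs were higher in 6 of 6 embryos, by 3.29 to 9.58 points and by 5.34 on average (exact sign-flip permutation test, two-sided, p = 0.0312). The largest difference was that of control 1, and without it the mean difference was 4.40. Control 1 minus the mean of the other 5 embryos was -6.11 points at 1 to 10 bp, -10.9 at 21 to 50 bp and -12.4 at 51 to 100 bp. Beyond that it changed little, at -11.8 points for 101 to 200 bp, -12.2 for 201 to 500 bp and -12.5 beyond 500 bp.

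**Figure D2:**
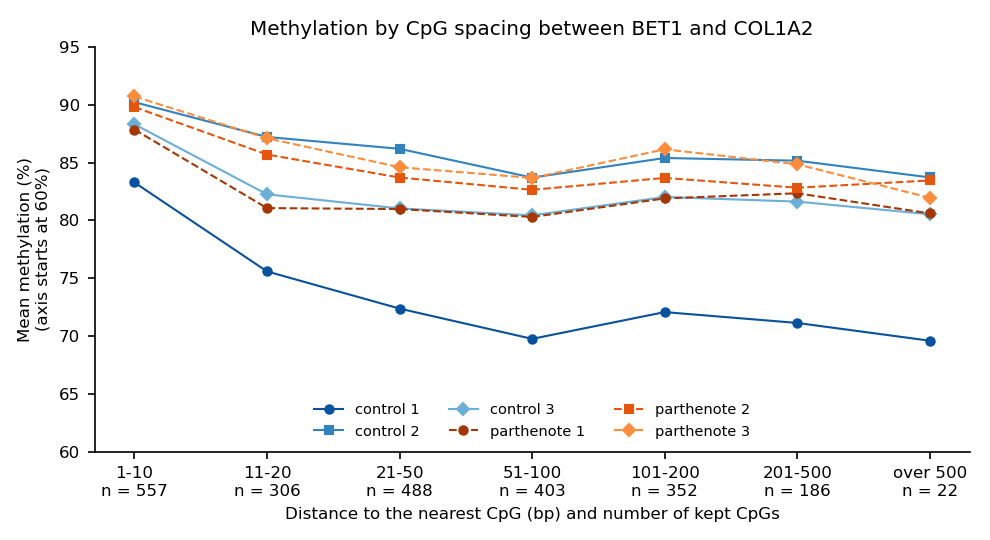
Mean methylation (%, axis from 60%) of kept CpGs grouped by the distance to their nearest CpG in bp, with the number of CpGs under each group, 1 line per embryo (solid, controls; dashed, parthenotes). All 6 lines are highest at 1 to 10 bp. Control 1 is nearest to the others there, and its distance below them changes little from 51 bp on.

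Low stretches were sought as candidate distal elements. A low stretch was a run of at least 3 neighbouring kept CpGs, no more than 500 bp apart, each under 50% in the mean of the 6 embryos. The interval held 7, with 45 CpGs or 1.94% of its kept CpGs, and the other intergenic CpGs also held 7, with 43 CpGs or 1.72%, so the interval was not set apart by their number. All 7 were distal to BET1 and COL1A2, the nearest lying 20454 bp from either. The noncoding gene was not counted in that distance, and 2 of the stretches lay inside LOC102163402. Single CpGs under 50% outside any stretch numbered 54, of which 7 bore a variant sign. Nothing in these data shows whether a low stretch acts as an enhancer, since chromatin and RNA were not examined here.

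The most CpGs were in a stretch at 74012639 to 74013432, 794 bp long and 161 kb upstream of COL1A2, where 17 CpGs were kept. It held 15.4%, 14.9% and 11.6% in controls 1 to 3 and 15.2%, 13% and 18.3% in parthenotes 1 to 3, from 344 to 525 reads. The 6 embryos lay within 6.68 points of each other, and control 1 was not the lowest there. Of its 21 listed CpGs 17 were kept, and 1 of these bore a variant sign. Among the 17, 12 were under 10%, and those at 74012867 and 74012977 were at 0% in every embryo. At these 2 CpGs an embryo gave 18 to 36 reads, and a count of 0 (3 counts of the total) allows a level of up to 8.33% to 16.7% in an embryo. The flanking 1000 bp averaged 80.9% on the BET1 side and 69.3% on the COL1A2 side. The stretch was thus a dip in a methylated neighbourhood, and controls and parthenotes overlapped in it.

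Inside LOC102163402 the 2 stretches were smaller and also alike among embryos. The 4 CpGs at 73874532 to 73874627 held 17.1%, 14.1% and 19.8% in the controls and 14.3%, 23.1% and 18.9% in the parthenotes. The 5 CpGs at 73885129 to 73885391 held 26.5%, 25.3% and 26.5% in the controls and 27.0%, 33.8% and 29.0% in the parthenotes. In both, the embryos differed by less than 10 points, and parthenote 2 was highest. Another stretch, 3 CpGs at 74062329 to 74062415, was less even, with 32.4%, 22.3% and 40.9% in the controls and 51%, 35.8% and 35.0% in the parthenotes. There control 2 was lowest and parthenote 1 highest.

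The remaining 3 stretches lay together 20.5 to 21.8 kb upstream of COL1A2 and differed widely among embryos of the same group. The 7 CpGs at 74152669 to 74153062 held 36.4%, 50.3% and 15.5% in controls 1 to 3 and 5.97%, 52.7% and 51.9% in parthenotes 1 to 3. The 6 CpGs at 74153089 to 74153384 held 20.4%, 54.5% and 13.5% in the controls and 8.25%, 58.5% and 57.9% in the parthenotes. The 3 CpGs at 74153903 to 74154031 held 33.0%, 57.6% and 16.0% in the controls and 18.2%, 64% and 56% in the parthenotes. Each of the 3 stretches had the same embryos low, control 3 and parthenote 1, and the same embryos high, control 2 and parthenotes 2 and 3.

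Taken as 1 region from 74152669 to 74154031, chosen after its values were seen, these 1363 bp held 18 kept CpGs. Control 1 was at 29.0% (95% Wilson interval 25.2 to 33.1), control 2 at 57.3% (53.1 to 61.4) and control 3 at 16.8% (14.1 to 19.9). Parthenote 1 was at 11.0% (8.46 to 14.1), parthenote 2 at 61.4% (57.2 to 65.4) and parthenote 3 at 57.9% (54.2 to 61.6). The intervals rest on 474 to 675 reads and cover counting error only, since reads of the same molecule at neighbouring CpGs are not independent. The range of 50.4 points was far wider than any of these intervals, and it split both groups. The controls averaged 34.4% ± 20.8 (SD, n = 3) and the parthenotes 43.4% ± 28.2 (SD, n = 3), and the groups overlapped. The 1000 bp on the BET1 side averaged 84.2%, with embryos from 70.1% to 93.4%, and those on the COL1A2 side averaged 64.2%, with embryos from 41.6% to 84.0%, so wide differences went on past the region on that side.

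The order of the embryos is given by CpG as a description only, because the region and the order were both picked from these reads and neighbouring CpGs share molecules. At 18 of 18 CpGs of this region control 2, parthenote 2 and parthenote 3 were each above control 3 and parthenote 1, and at 12 of 18 control 1 lay between them. In the stretch 161 kb from COL1A2 that order held at 2 of 17 CpGs. There 12 of the 17 were under 10%, which leaves little room for an order or a wide range, so the 2 are not like for like. The median range among the embryos was 56.1 points per CpG in the variable region and 8.0 points in the other. None of the 18 CpGs bore a variant sign.

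**Figure D3:**
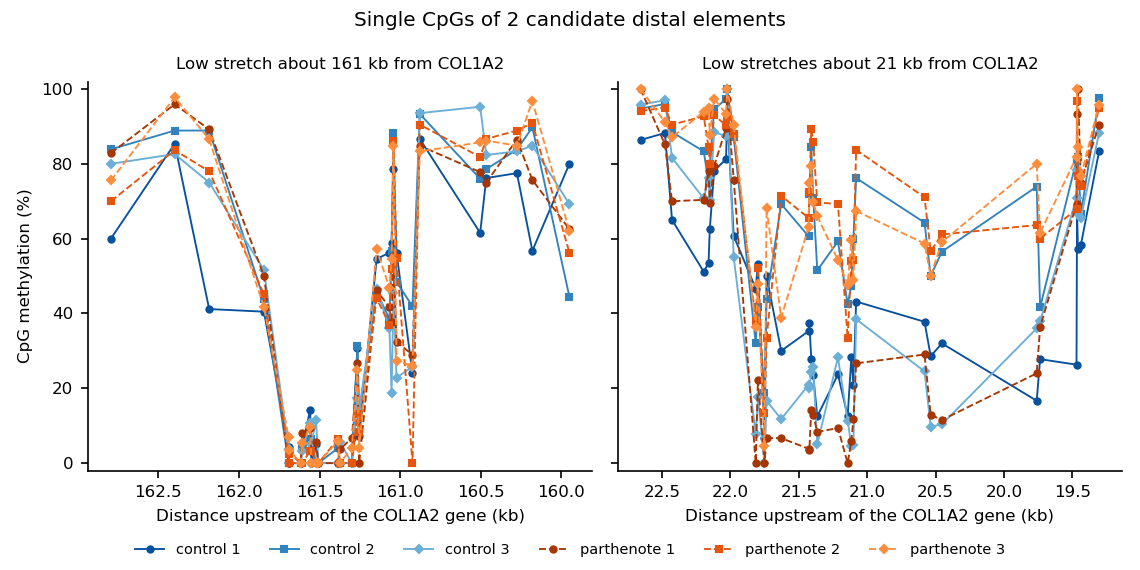
Methylation (%) of each kept CpG in every embryo against its distance upstream of COL1A2 in kb, for the low stretch about 161 kb away (left) and the group of low stretches about 21 kb away (right), with flanks. On the left the 6 embryos fall together to near 0%, and on the right control 3 and parthenote 1 stay low while control 2, parthenote 2 and parthenote 3 lie above them at each of the 18 CpGs of the region.

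Spread among embryos was largest at intermediate levels over the whole interval. The median CpG had an SD of 6.96 points over the 6 embryos, against 6.0 points from counting reads alone. At 244 CpGs (10.5%) the SD exceeded the counting value by more than 2 times. That share was 36.8% for CpGs at 30% to 50%, 23.0% at 50% to 80% and 1.72% at 90% or more. Without control 1 the median SD was 5.50 points.

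Reads were next summed in 500 bp windows, each holding 3 CpGs or more and no fewer than 30 reads per embryo. CpGs with fewer than 10 reads in an embryo were included in the windows. The interval gave 371 windows and the rest of the deposited stretch 1540. The within-group SD, pooled over controls and parthenotes, had a median of 5.82 points here and 5.28 in the rest, while counting gave 3.13 and 2.89. It reached 20 points in 5 windows here (1.35%) and in 4 of the rest (0.26%). At a limit of 15 points the counts were 12 (3.23%) and 33 (2.14%), and at 10 points 57 (15.4%) and 185 (12.0%). The limits were set after the values were seen, neighbouring windows are not independent, and no test was made of these shares. Leaving out parthenote 1 or control 2 lowered the 5 windows to 2 and 3, with 4 in the rest both times. Without parthenote 2 the counts were 7 here and 10 in the rest, and without parthenote 3 they were 4 and 10, so the contrast with the rest depends on single embryos.

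Of the 12 windows at 15 points or more, 10 lay outside LOC102163402, where 184 of the 371 windows (49.6%) were. At 10 points or more it was 33 of 57, so the lean to the COL1A2 side depends on the limit. None of the 12 held a CpG with a variant sign. The widest spread was at 74153000, within the variable region already described, with 25.6%, 63.0% and 18.3% in the controls and 9.57%, 65.6% and 62.7% in the parthenotes. The window at 74133000 held 65.9%, 77.8% and 34.2% in the controls and 26.2%, 68.1% and 67.1% in the parthenotes. At 74146000 the controls held 48.7%, 80% and 53.3% and the parthenotes 32.8%, 77.9% and 71.9%. In 8 of the 12 windows control 3 and parthenote 1 were both below control 2, parthenote 2 and parthenote 3. In 2 windows that order was turned round, and the clearer of these, at 73881500 inside LOC102163402, held 68.0%, 34.4% and 83.3% in the controls and 72.7%, 41.4% and 37.0% in the parthenotes. Of the last 2 windows, 1 had control 1 far below the rest and 1 followed neither order.

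**Figure D4:**
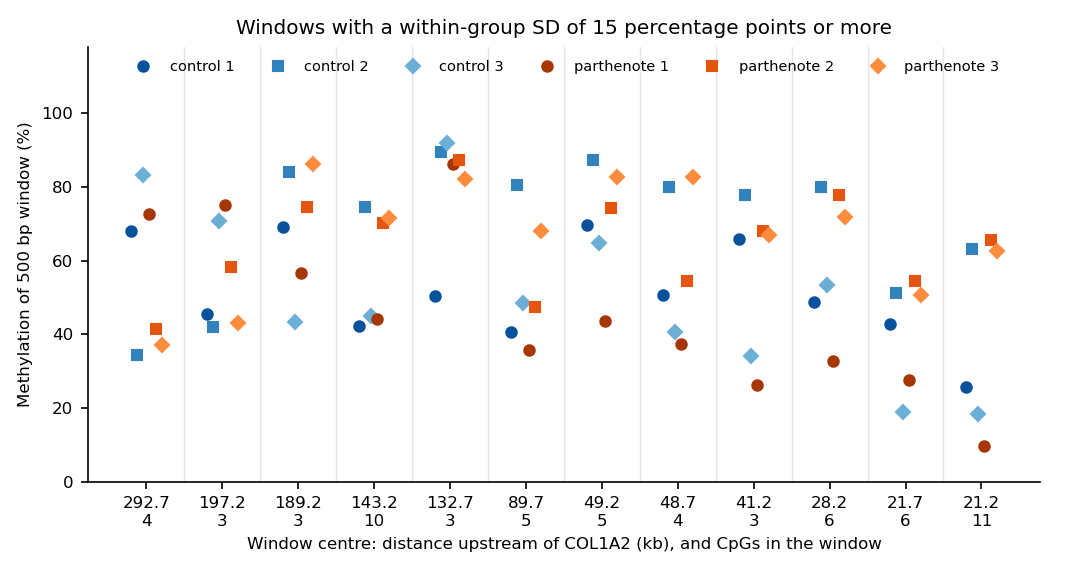
Methylation (%) of the 12 windows of 500 bp with a within-group SD of 15 points or more, 1 point per embryo (blue, controls; orange, parthenotes), ordered by distance of the window centre upstream of COL1A2 in kb, with the number of CpGs below it. Controls and parthenotes overlap in each window, and in 8 of the 12 control 3 and parthenote 1 lie under control 2, parthenote 2 and parthenote 3.

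Some embryos of different groups deviated together over the windows, both in the interval and outside it. Each window's group mean was taken off, so that embryos of different groups are not forced to oppose each other in the Pearson r. The deviations of the 3 embryos of a group sum to 0 in each window, so the values of different pairs are linked. Control 3 and parthenote 1 then had an r of 0.55 over the 371 windows of the interval and 0.27 over the 1540 others. For control 2 and parthenote 3 it was 0.54 and 0.41, and for control 2 and parthenote 2 it was 0.30 and 0.16. Control 2 and parthenote 1 were opposed, at -0.56 and -0.46, as were control 3 and parthenote 3, at -0.46 and -0.21. Control 1 had values from -0.08 to 0.06 with the 3 parthenotes in the interval and from -0.23 to 0.24 outside it. The same signs were thus seen in the rest of the deposited stretch for these 5 pairs, which are not 5 separate findings. With each window's mean over all 6 embryos taken off instead, control 3 and parthenote 1 had an r of 0.38 in the interval and -0.04 outside it, so the size of the contrast depends on the centring. These are descriptions over windows that share libraries, and the source of the pattern was not tested.

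Parthenotes and controls were then compared feature by feature. edgeR's quasi-likelihood test with Benjamini-Hochberg adjustment over all CpGs of the deposited stretch called 53 of 12359 at an adjusted p under 0.05 (0.429%), and 5 of the 2314 in the interval. All 5 were higher in parthenotes, and all 5 bore a variant sign. With CpGs bearing such a sign left out, none of 2231 CpGs of the interval was called, against 50 of 11912 in the whole deposited stretch.

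The strongest call was at 73820305, inside LOC102163402, where the controls read 41.4%, 0% and 0% and the parthenotes 100%, 96.8% and 96.8% from 13 to 31 reads (edgeR adjusted p = 0.000219). At that site 57.1% of opposite-strand reads were A in control 1, and controls 2 and 3 lacked calls on a strand. The CpG at 73812088, also inside that gene, had the same layout, with 50%, 0% and 0% in the controls and 91.7%, 100% and 100% in the parthenotes (edgeR adjusted p = 0.00201). At 74139003 the controls read 44.2%, 50% and 3.70% and the parthenotes 90%, 100% and 95.8% (edgeR adjusted p = 0.00223). At 74053699 the controls read 48.1%, 50% and 54.5% and the parthenotes 100%, 100% and 97.4% (edgeR adjusted p = 0.00253). The sign there came from control 1 alone, with 61.5% A, while controls 2 and 3 showed 0%. At 74134582 the controls read 0%, 0% and 4.0%, parthenote 1 0%, and parthenotes 2 and 3 86.4% and 83.3% (edgeR adjusted p = 0.0195), with a strand lacking calls in the 4 low embryos. The values of 0% at the called sites rest on 12 to 21 reads each, which allow a level of up to 14.3% to 25%. A lost CpG on some chromosomes and a change in methylation cannot be told apart at such sites from these tables alone.

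No 500 bp window of the interval passed, against 6 of 1911 in the whole stretch (0.314%), and no 10 kb bin among 37, against 1 of 210 (0.476%; edgeR, adjusted p under 0.05). At an unadjusted edgeR p under 0.05 the interval had 12 of its 371 windows and 0 of its 37 bins. These counts were not made for the whole stretch, so nothing is read from them. With limma on logit levels 0 of both were called, against 6 of 1911 windows and 1 of 210 bins in all. Fisher's exact test, for which the reads of each group were pooled as if from 1 embryo, called 65 windows (17.5%) and 34 bins (91.9%) of the interval, close to its share of all windows (321 of 1911, 16.8%) and above that of all bins (174 of 210, 82.9%). It called 65 CpGs of the interval (2.81%), against 358 of 12359 in all (2.9%). In 1000 bp windows edgeR called 2 of 317, against 6 of 1703 in all (0.352%), and these held the sites at 73820305 and 74139003.

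The 2 windows nearest to a call were neighbours 34.7 and 35.2 kb upstream of COL1A2 and were rich in variant signs. The window at 74139000 held 72.0%, 79.5% and 69.4% in the controls and 89.2%, 95.9% and 94.8% in the parthenotes, a difference of 19.7 points (edgeR adjusted p = 0.0576). The window at 74139500 held 64.6%, 85.8% and 73.7% in the controls and 92.6%, 93.2% and 97.4% in the parthenotes (edgeR adjusted p = 0.0576). All parthenotes lay above all controls in both windows, but 11 of 13 and 13 of 15 of their CpGs bore a variant sign. Such a sign can be a strand without any call, and only 3 CpGs of each window had at least 10 reads in every embryo. The 2 CpGs without a variant sign in each averaged 93.1% in controls and 96.9% in parthenotes in the former, and 86.8% and 92.1% in the latter. In the latter window parthenotes 2 and 3 gave 414 and 303 reads and the other embryos 79 to 127. Its 2 CpGs without a sign held 48 of the 79 reads of control 1 and 59 of the 414 of parthenote 2. The embryos were thus read over largely different CpGs there.

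The largest difference of any window in the interval, 20.2 points, lay 260.2 kb from COL1A2. It held 62.2%, 55.0% and 65.5% in the controls and 74.3%, 84.5% and 84.4% in the parthenotes over 3 CpGs. The groups did not overlap, at 37 to 84 reads per embryo, and the window did not pass (edgeR adjusted p = 0.995). Of its 3 CpGs 1 bore a variant sign, and only 2 had at least 10 reads in every embryo. The 2 CpGs without a sign held 55.6%, 71.7% and 66.7% in the controls and 79.2%, 83.3% and 80.5% in the parthenotes. Their group means were 64.6% and 81.0%, closer than those of the whole window. The largest difference in the other direction was that of the window at 73881500, -11.6 points, where both groups were split among their own embryos (edgeR adjusted p = 0.995).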

How the data were processed

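The deposited tables give, for each cytosine and strand of 1 stretch of chromosome 9, the count of reads with C and with C or T, per the file headers. They also give opposite-strand counts of G and of G or A, an estimated count of C or T that the authors corrected by the opposite-strand share of G, and the authors' methylation fraction with its bounds, per the file headers. Reads were aligned with BSMAP 2.87 to Sscrofa11.1, per the submitters' processing notes. Trimming, duplicate removal and the conversion rate are not given in the sources used here.

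Counts were summed over both strands of each CpG, and CpGs with at least 10 reads in every embryo were kept. Levels of sets and of 10 kb bins are means over CpGs, and levels of windows and stretches, and all counts tested, are summed reads. Windows needed 3 CpGs and 30 reads in every embryo, and tested bins 10 CpGs and 100 reads. Windows and tested bins took every CpG with a read, also those below the limit of 10 reads. The authors' corrected counts and fractions were used only as an alternative. Group differences were tested on methylated and unmethylated counts with edgeR 4.0.16 (quasi-likelihood, R 4.3.3), fitted to all CpGs, windows or bins of the stretch and checked on simulated data. limma 3.58.1 and Fisher's exact test were alternatives. Comparisons within embryos used exact two-sided sign flips over 6 embryos (Python 3.11.15, scipy 1.17.1).

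Gene positions are RefSeq's for Sscrofa11.1, the build of the tables. Named were BET1, COL1A2 and genes overlapping the interval, the low stretches, called CpGs, windows and bins, and the windows of largest difference in each direction. The region 21 kb from COL1A2, the noncoding RNA comparison and the most variable windows were added after the values were seen. The CpGs, lists and tests were chosen with earlier results of these data known. No embryo pair shared identical counts at more than 1.17% of CpGs.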

Additional observations from a re-analysis of the deposited data

How the results depend on the processing

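The mean difference between parthenotes and controls reversed to -0.036 without control 1 (5 of 6 left-out embryos kept its sign, up to 5.87) and was 3.16 with the authors' corrected totals. Called CpGs, 5 in all, became 1 at 20 reads or more, 0 without variant signs, 3 with limma, 65 with Fisher's exact test on pooled reads, and 3 to 8 with an embryo left out. In the whole deposited stretch 53 CpGs were called, and in the same order 37, 50, 38, 358 and 25 to 61. Called windows, 0 in all, became 65 with Fisher's test, 2 at 1000 bp and 0 to 2 with an embryo left out (2 without control 2 and 2 without parthenote 1, both times the windows at 74139000 and 74139500). In the whole stretch 6 windows were called, and in the same order 321, 6 and 6 to 12. Called bins rose from 0 to 34 with Fisher's test, and from 1 to 174 of 210 in the whole stretch. Comparisons within embryos kept their sign with each embryo left out, where 5 embryos cannot go below an exact permutation p = 0.0625: -2.02 to -1.68 for the interval against other intergenic CpGs, 4.40 to 6.13 for close against isolated CpGs, -3.78 to -2.39 for gene ends against the middle and 2.92 to 3.58 for the noncoding RNA span. The first was -0.76 against intronic CpGs, and the gene-end difference was -1.81 at 20 reads or more, -2.27 within 10 kb and -1.86 within 2 kb (9 CpGs). Low stretches, 7 in all, were 2 with each CpG under 30%, 4 with at least 5 CpGs and 6 to 8 with an embryo left out. Windows with an SD of 20 points or more, 5 in all, were 12 at 15 points, 57 at 10 points and 2 to 7 with an embryo left out. Of 121 alternatives, 73 kept the direction and side of the threshold of a difference, or a count within 1.5 times, or a value within 1 SD, although 1 CpG called lower in parthenotes appeared without parthenote 1. The number of embryos partly fixed this count. With an embryo left out, no comparison within embryos could stay under the threshold, and the mean difference between the groups could not pass it in any setting. Deviations of same-numbered embryos from their group means had an r of 0.19, 0.19 and -0.28 over 1911 windows. The third pair was opposed, and control 2 was closer to parthenote 3 (0.44) than to parthenote 2, so the numbers were not taken as pairs. With the replicate block edgeR called 12 CpGs (1 of them lower in parthenotes, each with a variant sign), 2 windows and 0 bins. Those counts were 80, 9 and 1 in the whole deposited stretch. The mean difference of 3.32 had an exact sign-flip p = 0.5 with this block. The comparison of repeat-masked sequence and the search for sequence features were not run, because no genome was used here. Depth limits single CpGs most: at about 30 reads the counting SD of a median CpG is 6.0 points.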
